A study of Homo sapiens with 156 samples.

Results

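The genes described here are 10 imprinted genes that lie outside chromosome 11, taken from a list of symbols matched to the Ensembl identifiers of the deposited tables. They are MEG3, DLK1, PEG10, SGCE, PEG3, SNRPN, PLAGL1, MEST, NAP1L5 and L3MBTL1, and all 10 were found among 59939 genes. The cells were MV411, THP1 and NOMO1, established lines of human acute myeloid leukemia that carry a rearranged KMT2A gene, and their RNA was sequenced. Cells received GSK032 (GSK3685032), a compound that inhibits DNMT1 without being built into DNA, or decitabine (DAC), a cytosine analog that is built into DNA and traps DNMT1. Each was given at 400 nM for 1, 2, 4 or 6 days and at 3.2, 16, 80, 400, 2000 and 10000 nM for 4 days. Further groups received GSK862 (GSK3484862), another DNMT1 inhibitor, at 1000 nM or GSK477 (GSK3510477) at 10000 nM for 2 or 4 days, and the vehicle DMSO for 1, 2, 4 or 6 days. This gave 26 groups per line, with 2 libraries in each group and 156 over the study. The labels name no genetic change in any group. They also do not say whether the 2 libraries of a group are separate cultures, and p-values therefore reflect the spread between libraries, which may be technical. The study asks how loss of DNMT1 activity through these compounds changes expression.

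An imprinted gene is read mainly from the copy inherited from 1 parent, and the choice goes back to DNA methylation that was laid down in the egg or the sperm. That methylation is copied after each round of replication by DNMT1. The zinc finger protein ZFP57 binds the methylated hexamer TGCCGC and brings in TRIM28, which helps to hold the mark. Among the members, MEG3 is a long noncoding RNA read from the maternal copy, and DLK1, PEG3, PEG10, SGCE, SNRPN, PLAGL1, MEST, NAP1L5 and L3MBTL1 are protein genes read from the paternal copy in tissues where they are imprinted. These tables hold RNA levels without alleles or methylation, so which copy was read in a library was not measured.

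Promoter windows of 6 members, MEG3, SNRPN, PLAGL1, MEST, NAP1L5 and L3MBTL1, were taken from RefSeq (GRCh38.p14), each running from 250 bases before a transcription start to 50 after it. Of the windows of a gene, the one with the most CpG pairs is used. The windows of the genes whose levels moved most, and that of SNRPN, whose level separates the lines, are shown, 5′ to 3′, with the ZFP57 hexamer in capitals on either strand (TGCCGC or GCGGCA, and as 1 run where copies overlap):
MEG3 (chr14:100825858-100826157, plus strand): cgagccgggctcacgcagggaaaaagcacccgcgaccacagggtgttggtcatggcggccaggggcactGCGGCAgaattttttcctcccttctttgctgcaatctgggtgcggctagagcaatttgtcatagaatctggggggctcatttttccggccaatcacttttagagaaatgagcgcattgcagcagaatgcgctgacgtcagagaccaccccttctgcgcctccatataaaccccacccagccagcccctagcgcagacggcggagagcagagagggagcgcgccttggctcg
MEST (chr7:130491835-130492134, plus strand): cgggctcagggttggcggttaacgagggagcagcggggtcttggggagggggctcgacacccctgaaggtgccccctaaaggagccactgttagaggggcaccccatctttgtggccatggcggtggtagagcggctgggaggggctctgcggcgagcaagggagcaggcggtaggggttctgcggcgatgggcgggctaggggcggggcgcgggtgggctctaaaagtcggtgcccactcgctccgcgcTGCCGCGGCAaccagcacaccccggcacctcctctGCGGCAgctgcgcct
L3MBTL1 (chr20:43507447-43507746, plus strand): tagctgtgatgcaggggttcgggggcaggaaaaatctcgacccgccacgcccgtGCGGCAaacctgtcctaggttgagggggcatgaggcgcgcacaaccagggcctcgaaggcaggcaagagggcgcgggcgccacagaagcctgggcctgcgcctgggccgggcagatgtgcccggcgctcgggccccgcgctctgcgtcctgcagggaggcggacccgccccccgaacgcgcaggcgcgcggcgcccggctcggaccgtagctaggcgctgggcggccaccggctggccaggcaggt
SNRPN (chr15:24954737-24955036, plus strand): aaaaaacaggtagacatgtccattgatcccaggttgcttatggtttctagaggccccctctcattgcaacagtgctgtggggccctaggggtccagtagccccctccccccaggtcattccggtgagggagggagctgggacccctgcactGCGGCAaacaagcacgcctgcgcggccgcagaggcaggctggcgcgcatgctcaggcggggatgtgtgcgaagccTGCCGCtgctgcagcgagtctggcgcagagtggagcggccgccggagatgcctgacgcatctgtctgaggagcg
The MEG3 window holds 19 CpG pairs and 1 hexamer, the MEST window 25 and 3, the L3MBTL1 window 35 and 1, and the SNRPN window 18 and 2. Of all 20 windows of the 6 members, 12 hold the hexamer, as do the 6 windows chosen by their CpG pairs. Windows of 1 gene can overlap and share a copy, as the 3 of MEG3 do, so the 12 are not separate sites. Over all genes the hexamer is in 16.7% of 35116 RefSeq windows and in 27.7% of the 12940 windows with 18 to 39 CpG pairs, the range of the chosen ones, but those shares were not restricted to 1 window a gene. A match is a description of the letters and not a measured site.

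Levels are given in FPKM, fragment counts scaled to transcript length and to sequencing depth, as the authors deposited them. The 3 lines were deposited as separate tables, so levels are compared between lines only as printed values and without a test. Changes were estimated with limma after taking log2(FPKM + 0.5), a scale that shrinks the change of a gene near 0, and are given ± the standard error, which draws on all 26 groups of a line. Calls required an adjusted p under 0.05 together with a log2 change of 1 or more in either direction. Genes were tested where at least 2 libraries of the line reached 1 FPKM. In MV411 6 members passed that filter, all but MEG3, DLK1, PEG10 and SGCE. In THP1 5 passed, the 4 just named and PEG3 being too low. In NOMO1 7 passed, all but PEG10, SGCE and PEG3. MEG3, DLK1 and NAP1L5 passed in NOMO1 only through treated libraries, NAP1L5 through the 2 of DAC at day 6, so their calls there were partly fixed by the filter. Values of 1 fragment, read from low FPKM of genes with 1 transcript, put the scale of a library at 39.1 to 84.2 M fragments for MV411, 33.4 to 89.8 M for THP1 and 49.7 to 127.7 M for NOMO1, which need not be the library total. All 10 myeloid markers, among them PTPRC, SPI1 and CD33, had a median of at least 1 FPKM in DMSO in each line.

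Without drug, the members fell into genes near 0 in every line, genes expressed in 1 or 2 lines, and genes expressed in all. Over the 8 DMSO libraries of a line, SNRPN, which encodes a core protein of the splicing machinery (ENSG00000128739, chromosome 15, 24823637 to 24978723), was the highest member in MV411 and THP1. Its lowest, median and highest level were 69.0, 95.1 and 117 FPKM in MV411 and 69.9, 102 and 112 FPKM in THP1, against 0.357, 0.949 and 1.47 FPKM in NOMO1. The ranges of MV411 and THP1 overlap, and NOMO1 lies far under both. MEST, an enzyme of the hydrolase fold family (ENSG00000106484, chromosome 7, 130486171 to 130506465), had medians of 5.87 FPKM in MV411, 20.4 in THP1 and 7.99 in NOMO1, and the ranges of MV411 and NOMO1 (3.23 to 7.94 and 7.62 to 9.23) overlap. PLAGL1, a zinc finger regulator of growth (ENSG00000118495, chromosome 6, 143940300 to 144064599), had medians of 3.50 FPKM in MV411, 18.3 in THP1 and 4.28 in NOMO1, with THP1 above the overlapping ranges of the other lines. L3MBTL1, a reader of methylated histones on the arm of chromosome 20 that is often deleted in myeloid disease (ENSG00000185513, 43489442 to 43550950), stood at 4.46 FPKM in MV411, 7.42 in THP1 and 5.31 in NOMO1, with overlapping ranges.

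NAP1L5, a relative of nucleosome assembly proteins that lies on the opposite strand within HERC3 (ENSG00000177432, chromosome 4, 88695915 to 88697829), had DMSO medians of 1.63 FPKM in MV411, 3.48 in THP1 and 0.608 in NOMO1. Its ranges do not overlap (1.07 to 2.05, 2.49 to 4.04 and 0.562 to 0.700). PEG3, a zinc finger protein tied to growth and maternal behaviour in mice (ENSG00000198300, chromosome 19, 56810077 to 56840728), was expressed in MV411 at a median of 1.67 FPKM, with medians of 0.00179 in THP1 and 0.000800 in NOMO1. MEG3 (ENSG00000214548, chromosome 14, 100779410 to 100861031) and DLK1, a transmembrane relative of the Notch ligands (ENSG00000185559, chromosome 14, 100725705 to 100738224), are neighbours. Between the end of DLK1 and the outermost GENCODE 29 start of MEG3 lie 41185 bases, and the RefSeq window of MEG3 shown above lies further on. MEG3 and DLK1 were both near 0 in DMSO of all lines, at no more than 0.150 FPKM for MEG3 and 0.135 FPKM for DLK1. PEG10, derived from a retrotransposon (ENSG00000242265), and SGCE, a sarcoglycan of the cell membrane (ENSG00000127990), overlap by 248 bases at their starts on chromosome 7 and are read in opposite directions. PEG10 reached at most 0.0907 FPKM and SGCE at most 0.149 FPKM in DMSO.

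**Figure D1:**
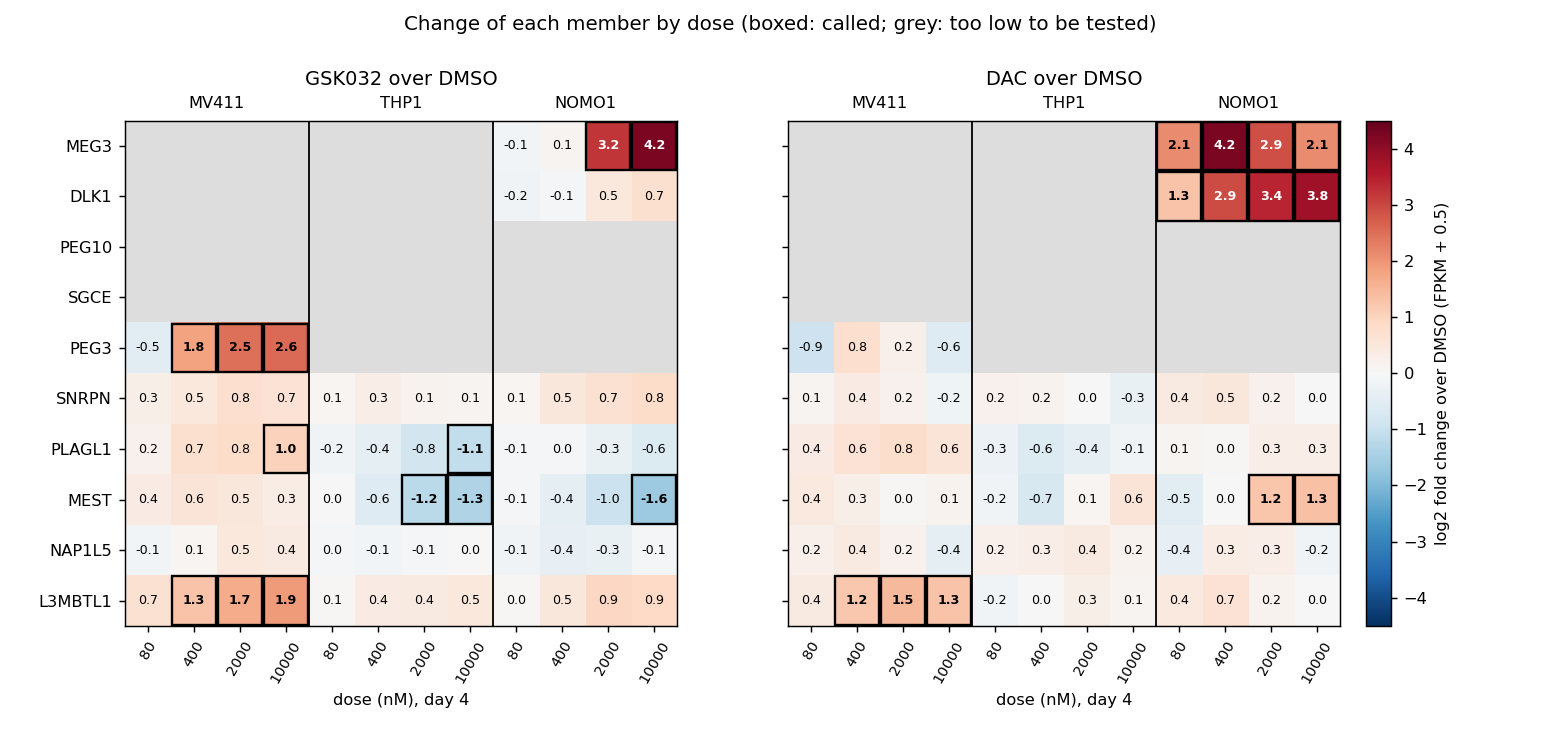
Log2 fold changes over DMSO at day 4 (FPKM + 0.5) for the 10 members at 80, 400, 2000 and 10000 nM, with GSK032 on the left and DAC on the right, 3 lines each. Boxed cells were called and grey cells were too low to be tested; in NOMO1 MEG3 is called with both compounds and DLK1 with DAC alone, the PEG3 row is called with GSK032 in MV411, and the MEST row runs blue with GSK032 and red with DAC at the 2 highest doses in NOMO1.

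The first question was which members respond at 400 nM after 4 days. With GSK032, limma called 2 of 6 tested members in MV411, PEG3 and L3MBTL1, both higher, where 9.31% of all tested genes were called. It called 0 of 5 in THP1 and 0 of 7 in NOMO1, where 2.27% and 2.93% of genes were called, and 4 members had an unadjusted p under 0.05 in each of those lines. With DAC it called L3MBTL1 alone in MV411 (10.2% of genes), 0 of 5 in THP1 (8.16% of genes, 4 members with an unadjusted p under 0.05) and MEG3 and DLK1 of 7 in NOMO1 (19.1% of genes), all higher. The median change of the tested members was 0.64 with GSK032 and 0.51 with DAC in MV411, against 0 over all tested genes with either compound. It was −0.14 with GSK032 and 0.03 with DAC in THP1, where all genes had 0 and −0.03, and −0.05 with GSK032 and 0.52 with DAC in NOMO1, where all genes had 0. With 5 to 7 members tested in a line, nothing is read from these counts. In bulk RNA a lower level in every cell and fewer cells that express a gene cannot be told apart.

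MEG3 rose with both compounds in NOMO1, at different doses. It passed the filter there only through treated libraries, so its calls and p-values are given as a description. With DAC at day 4 its libraries held 0.0882 and 0.0425 FPKM at 3.2 nM, 0.200 and 0.0757 at 16 nM, 1.31 and 2.71 at 80 nM, 11.4 and 8.33 at 400 nM, 3.23 and 4.02 at 2000 nM, and 2.00 and 1.77 at 10000 nM, against 0.0205 and 0.0786 in DMSO. The level was highest at 400 nM and lower again at the 2 doses above it. With GSK032 MEG3 had 0.0132 and 0.00665 FPKM at 80 nM, 0.0829 and 0.1199 at 400 nM, 3.64 and 5.77 at 2000 nM, and 8.22 and 11.7 at 10000 nM. The GSK032 libraries were thus highest at 10000 nM, where the DAC libraries were under their level at 400 nM. The changes over DMSO with DAC were 2.13 ± 0.21 at 80 nM (adjusted p = 1.51e-09, 8.92% of genes called), 4.22 ± 0.21 at 400 nM (adjusted p = 1.77e-16), 2.90 ± 0.21 at 2000 nM (23.2% of genes) and 2.12 ± 0.21 at 10000 nM (25.5% of genes). With GSK032 they were 0.13 ± 0.21 at 400 nM, which was not called, 3.22 ± 0.21 at 2000 nM (adjusted p = 2.49e-13, 7.18% of genes) and 4.23 ± 0.21 at 10000 nM (adjusted p = 2.61e-16, 12.4% of genes).

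DLK1, the protein gene that shares a cluster with MEG3, followed DAC but hardly GSK032 in NOMO1. Its calls and p-values there are also a description, since only treated libraries took it past the filter. With DAC at day 4 DLK1 had 0.775 and 1.12 FPKM at 80 nM, 3.89 and 4.03 at 400 nM, 6.06 and 5.61 at 2000 nM, and 7.90 and 7.53 at 10000 nM, against 0.135 and 0.0422 in DMSO. Each step up in DAC dose gave a higher pair of libraries, with no overlap between neighbouring doses from 80 nM on. With GSK032 DLK1 had 0.0589 and 0.0711 FPKM at 400 nM, 0.322 and 0.295 at 2000 nM, and 0.586 and 0.381 at 10000 nM. The DAC changes were 1.29 ± 0.18 at 80 nM, 2.93 ± 0.18 at 400 nM (adjusted p = 3.48e-14), 3.43 ± 0.18 at 2000 nM and 3.81 ± 0.18 at 10000 nM. The GSK032 change of DLK1 was 0.74 ± 0.18 at 10000 nM, past the p threshold (adjusted p = 0.00117) but under the size threshold. At that size DLK1 depends on the pseudocount, its GSK032 change being 1.65 with a pseudocount of 0.1.

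**Figure D2:**
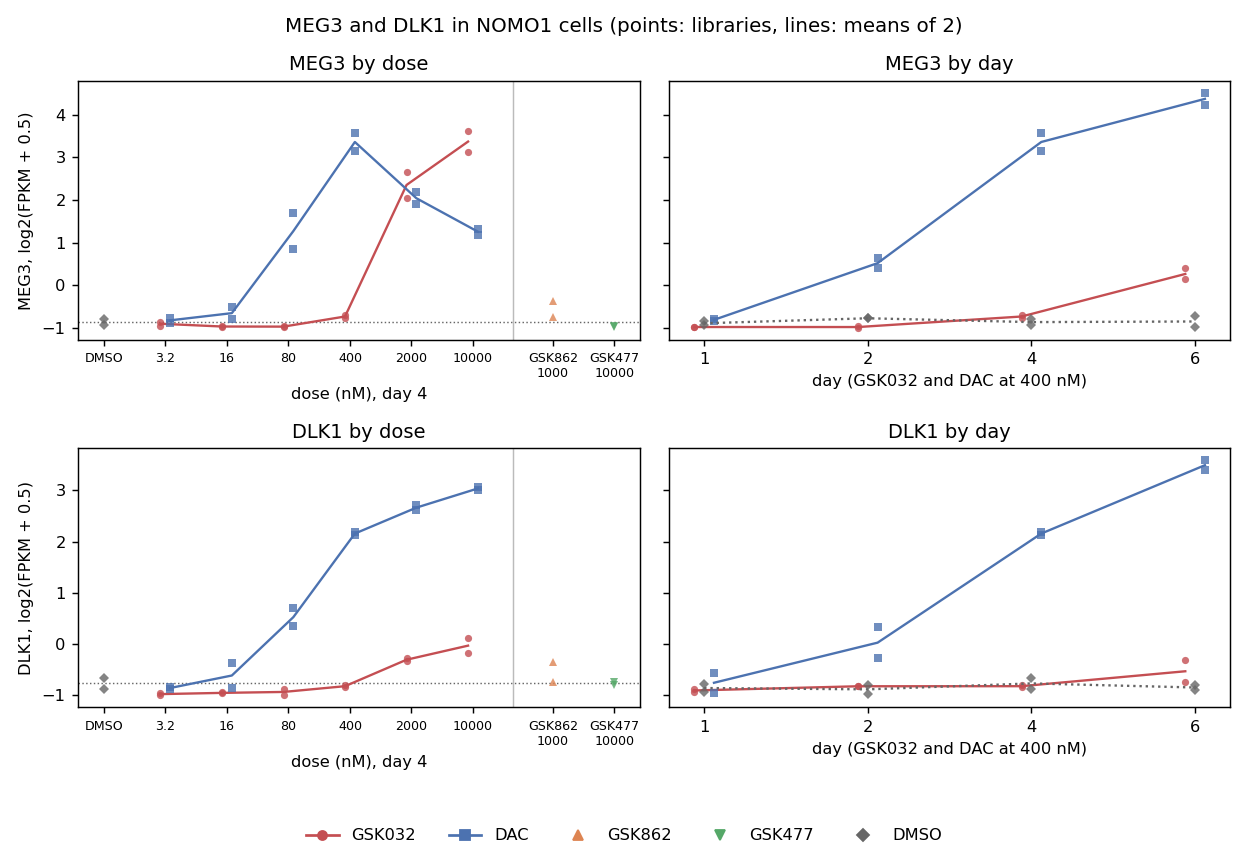
MEG3 (top) and DLK1 (bottom) in NOMO1, as log2(FPKM + 0.5), by dose at day 4 (left) and by day at 400 nM (right); points are single libraries, lines are means of 2, and the dotted line is DMSO. MEG3 peaks at 400 nM with DAC and is highest at 10000 nM with GSK032, whereas DLK1 rises over the DAC doses and reaches 0.586 FPKM at most with GSK032.

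The order of the compounds on MEG3 turned over with dose. GSK032 minus DAC was −2.24 ± 0.21 at 80 nM (7.51% of all genes called), −4.09 ± 0.21 at 400 nM (13.2% of genes) and 2.11 ± 0.21 at 10000 nM (15.9% of genes), all called, with an adjusted p over the 162 member pairs of at most 5.66e-10. At 2000 nM (14.2% of genes) the MEG3 libraries of the compounds overlapped, at 3.64 and 5.77 FPKM with GSK032 against 3.23 and 4.02 with DAC, and the difference was 0.31 with a 95% interval of −0.11 to 0.73. DLK1 was lower with GSK032 than with DAC at each of these doses, with GSK032 minus DAC at −1.46 ± 0.18 at 80 nM, −2.98 ± 0.18 at 400 nM, −2.97 ± 0.18 at 2000 nM and −3.07 ± 0.18 at 10000 nM. At 10000 nM MEG3 was thus higher with GSK032 and DLK1 higher with DAC. Both genes passed the filter in NOMO1 only through treated libraries. Their calls and p-values were therefore partly fixed by the filter and are given as a description.

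Over days at 400 nM, MEG3 was the only member called before day 4. With DAC in NOMO1 it held 0.0794 and 0.0597 FPKM at day 1, 0.813 and 1.06 at day 2, 11.4 and 8.33 at day 4, and 22.3 and 18.2 at day 6, against DMSO values that stayed between 0.00699 and 0.106 FPKM. The day 2 change was 1.29 ± 0.21 (adjusted p = 2.05e-05) and was the 1 call among 36 member tests at day 2, where 1.72% of gene tests were called (3.91% for DAC in NOMO1), 11 member tests had an unadjusted p under 0.05, and the MEG3 call ended with a pseudocount of 1 (0.83). The day 6 change was 5.22 ± 0.21. GSK032 minus DAC for MEG3 was −1.50 ± 0.21 at day 2 (2.4% of genes) and −4.11 ± 0.21 at day 6. DLK1 with DAC had 0.0185 and 0.175 FPKM at day 1, 0.324 and 0.760 at day 2, 3.89 and 4.03 at day 4, and 11.5 and 10.0 at day 6, with a day 6 change of 4.34 ± 0.18 (24.6% of genes). With GSK032 at day 6 (5.24% of genes), MEG3 had 0.812 and 0.597 FPKM, against 0.00699 and 0.106 in DMSO, a change of 1.11 ± 0.21 that ended without the first DMSO library or the first GSK032 library (0.98 in both cases) and with a pseudocount of 1 (0.69). DLK1 had 0.301 and 0.0973 FPKM in the GSK032 libraries of that day, which was not called at 0.32 ± 0.18. As with the doses, the filter partly fixed the calls of MEG3 and DLK1 over days.

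Genes of other lineages moved in the same NOMO1 libraries. At 400 nM DAC and day 4, the summed level of 6 fibroblast markers was 28.4 to 33.1 FPKM, against 2.57 to 9.83 FPKM in the 8 DMSO libraries, with COL3A1 and DCN under 1 FPKM. The 5 epithelial markers summed to 133 to 164 FPKM, against 26.5 to 40.8 in DMSO, with CDH1 under 1 FPKM, and the T cell markers CD3D and CD3E to 149 to 162 FPKM, against 3.83 to 12.6, with CD3E under 1 FPKM. The 3 hepatic markers summed to 3.66 to 4.35 FPKM, against 0.0594 to 0.352, with ALB and AFP under 1 FPKM. The 10 myeloid markers summed to 3620 to 4037 FPKM, against 6062 to 8293. The 4 trophoblast markers summed to 0.932 to 1.37 FPKM, against 0.546 to 0.783, and the 4 neural markers to 1.201 to 1.24, against 0.648 to 1.28. The part of these markers in the changes of MEG3 and DLK1 was not tested.

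Outside NOMO1, MEG3 and DLK1 stayed low. MEG3 reached at most 0.180 FPKM in any MV411 library and 0.441 FPKM in any THP1 library. That THP1 maximum came with 10000 nM DAC, whose libraries held 0.441 and 0.362 FPKM, against 0.0496 and 0.00588 in DMSO. DLK1 reached at most 0.137 FPKM in MV411 and 0.263 FPKM in THP1, in single libraries whose partner held 0.00323 and 0.00369 FPKM. In a fit over all 156 libraries, the DAC effect on MEG3 at 400 nM and day 4 was larger in NOMO1 than in THP1 by 4.16 ± 0.20, and that on DLK1 by 2.92 ± 0.17, where 9.89% of genes differed. Both genes entered that fit through treated NOMO1 libraries alone, so these differences were largely fixed by the filter and are given as a description. Against MV411 the MEG3 effect in NOMO1 was also larger (MV411 minus NOMO1 −4.14 ± 0.20, 11.2% of genes).

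PEG10 and SGCE, the neighbouring pair on chromosome 7, had their highest levels in the same group of libraries. With DAC at 400 nM and day 6 in NOMO1, PEG10 held 1.17 and 0.916 FPKM and SGCE 0.687 and 0.881 FPKM, against 0.0233 and 0.0170 FPKM for PEG10 and 0.0242 and 0 FPKM for SGCE in DMSO. At day 4 with DAC, PEG10 had 0.628 and 0.503 FPKM at 400 nM, 0.965 and 0.878 at 2000 nM, and 0.589 and 0.790 at 10000 nM, against 0.0479 and 0.0242 in DMSO. In all of these the treated libraries stood above both DMSO libraries. With GSK032 at 10000 nM, PEG10 had 0.205 and 0.353 FPKM and SGCE 0.312 and 0.209 FPKM, against 0.149 and 0.00906 FPKM for SGCE in DMSO. Neither gene reached 1 FPKM in 2 libraries of a line, so no test was made.

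PEG3 rose in MV411 with GSK032, and its level was higher with GSK032 than with DAC at day 4 from 400 nM on. With GSK032 at day 4 its libraries held 1.01 and 1.49 FPKM at 80 nM, 8.09 and 8.00 at 400 nM, 13.6 and 12.8 at 2000 nM, and 13.7 and 14.1 at 10000 nM, against 1.81 and 2.06 in DMSO. At 80 nM both libraries lay under DMSO of day 4, and from 400 nM on they lay far above it. With DAC PEG3 had 0.787 and 0.749 FPKM at 80 nM, 3.62 and 3.60 at 400 nM, 2.50 and 2.18 at 2000 nM, and 1.03 and 1.26 at 10000 nM. The DAC series peaked at 400 nM, and at 10000 nM and at every dose up to 80 nM its libraries lay under both DMSO libraries of day 4. Over the 8 DMSO libraries of all days, PEG3 ran from 0.996 to 2.06 FPKM, with the highest at day 4. The libraries of DAC at 10000 nM and of GSK032 at 80 nM lay within that range, and those of DAC at 80 nM lay under it. The changes with GSK032 were 1.81 ± 0.17 at 400 nM (adjusted p = 9.52e-10), 2.49 ± 0.17 at 2000 nM (14.9% of genes called) and 2.56 ± 0.17 at 10000 nM (17.7% of genes). No DAC change of PEG3 was called, with 0.76 ± 0.17 at 400 nM, −0.94 ± 0.17 at 80 nM and −0.56 ± 0.17 at 10000 nM at day 4, and 0.86 ± 0.17 at 400 nM and day 6. The day 6 change was called with a pseudocount of 0.1 (1.03) or without the second DMSO library (1.07). The change at 80 nM passed the size threshold with a pseudocount of 0.1 (−1.23) or without the first DMSO library (−1.01).

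GSK032 minus DAC for PEG3 in MV411 was 1.06 ± 0.17 at 400 nM (1.91% of genes called), 2.27 ± 0.17 at 2000 nM (8.15% of genes) and 3.13 ± 0.17 at 10000 nM (11.5% of genes), with adjusted p over the pairs of 6.29e-06, 1.03e-12 and 5.28e-16. No other member was called between GSK032 and DAC in MV411 as deposited. After rescaling to equal sums, SNRPN (1.50), NAP1L5 (1.31), L3MBTL1 (1.27) and PLAGL1 (1.03) were also called higher with GSK032 than with DAC at 10000 nM, and SNRPN at 2000 nM (1.09). At 10000 nM NAP1L5 was also called with a pseudocount of 0.1 (1.14), and SNRPN (1.07) and NAP1L5 (1.18) were called without the first DAC library. The call at 400 nM ended with a pseudocount of 1 (0.97). GSK862 at 1000 nM and day 4 gave PEG3 4.91 and 5.00 FPKM, against 1.81 and 2.06 in DMSO, a change of 1.17 ± 0.17 (adjusted p = 4.45e-06, 5.37% of genes called). GSK477 at 10000 nM gave 1.105 and 1.28 FPKM, a change of −0.53 ± 0.17 that was not called. By day at 400 nM, PEG3 with GSK032 had 0.973 and 1.13 FPKM at day 1, 1.51 and 2.06 at day 2, 8.09 and 8.00 at day 4, and 8.70 and 8.39 at day 6, so that the step lay between days 2 and 4. The day 6 change was 2.26 ± 0.17 (12.4% of genes), against DMSO libraries of 1.13 and 1.69 FPKM, and GSK032 minus DAC at day 6 was 1.398 ± 0.17 (2.27% of genes). PEG3 lies wholly within ZIM2 on the same strand, so how the authors divided fragments between these genes bears on its level. The GSK032 effect on PEG3 at 400 nM and day 4 was larger in MV411 than in NOMO1 by 1.804 ± 0.15 (6.43% of genes differed) and than in THP1 by 1.75 ± 0.15 (4.45% of genes). PEG3 passed the filter of that comparison through MV411 libraries alone. It held at most 0.1203 FPKM in any THP1 library and 0.02398 in any NOMO1 library, too low to show a change of called size. These differences therefore restate its change in MV411 and are given as a description.

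L3MBTL1 rose in MV411 with both compounds. With GSK032 at day 4 its libraries held 7.54 and 8.40 FPKM at 80 nM, 10.8 and 14.1 at 400 nM, 14.6 and 18.5 at 2000 nM, and 19.1 and 20.2 at 10000 nM, against 5.02 and 4.52 in DMSO. With DAC they held 5.14 and 7.99 FPKM at 80 nM, 12.0 and 11.3 at 400 nM, 13.8 and 14.5 at 2000 nM, and 11.8 and 12.9 at 10000 nM. From 80 nM on, every treated library of L3MBTL1 exceeded both DMSO libraries. The changes with GSK032 were 1.29 ± 0.17 at 400 nM (adjusted p = 6.87e-07), 1.68 ± 0.17 at 2000 nM and 1.93 ± 0.17 at 10000 nM. With DAC they were 1.202 ± 0.17 at 400 nM (adjusted p = 1.84e-06), 1.47 ± 0.17 at 2000 nM (19.3% of genes) and 1.28 ± 0.17 at 10000 nM (23.3% of genes), the last at 0.83 and no longer called after rescaling libraries to equal sums. At 10000 nM GSK032 minus DAC was 0.65 ± 0.17, under the size threshold as deposited and called after rescaling (1.27). Day 6 changes were 1.48 ± 0.17 with GSK032 and 1.155 ± 0.17 with DAC (10.9% of genes), and the DAC call was also ended by rescaling (0.99). The 10 myeloid markers summed to 3691 to 4079 FPKM with GSK032 and 2359 to 2811 FPKM with DAC at 400 nM and day 4 in MV411, against 1187 to 2580 FPKM in the 8 DMSO libraries of all days. Of these markers, 4 were called higher and 1 lower with GSK032 (9.31% of all genes called). With DAC 3 were called higher and 1 lower (10.2% of genes), so the sums do not describe each marker. Their part in the changes of PEG3 and L3MBTL1 was not tested.

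**Figure D3:**
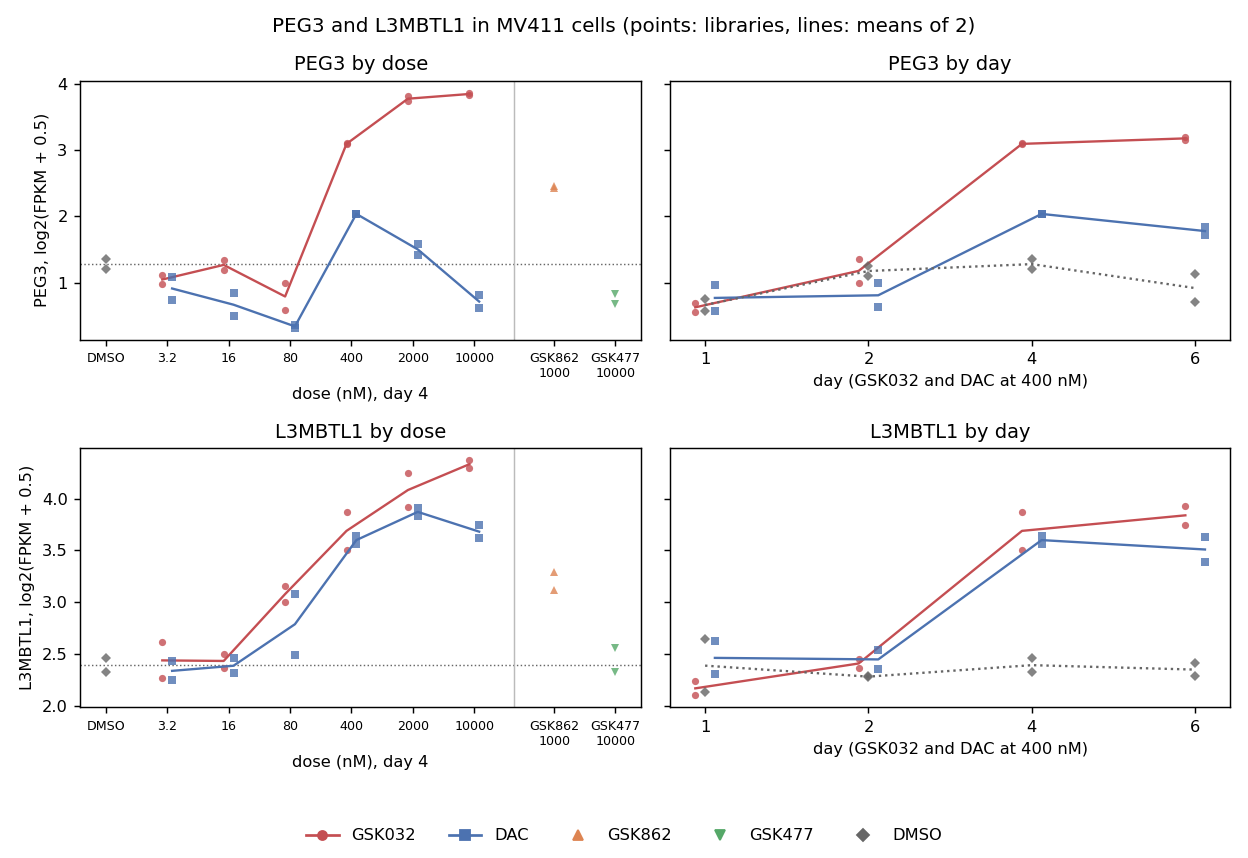
PEG3 (top) and L3MBTL1 (bottom) in MV411, as log2(FPKM + 0.5), by dose at day 4 (left) and by day at 400 nM (right); points are single libraries, lines are means of 2, and the dotted line is DMSO. PEG3 separates GSK032 from DAC from 400 nM on, whereas the L3MBTL1 series of the compounds run close together up to 2000 nM.

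In the other lines no L3MBTL1 change over DMSO was called, except with GSK032 at 2000 nM in NOMO1 when the first GSK032 library was left out (1.14, against 0.93 ± 0.19). In NOMO1 it had 9.35 and 10.7 FPKM with GSK032 at 10000 nM, against 5.12 and 5.27 in DMSO (0.88 ± 0.19, not called) and 3.85 and 4.65 with GSK477 at 10000 nM (1.15 ± 0.19, adjusted p = 1.45e-05, 10.8% of genes called). In THP1 L3MBTL1 had 12.3 and 12.4 FPKM with GSK032 at 10000 nM, against 9.05 and 8.56 in DMSO, and no change was called. The DAC effect on L3MBTL1 at 400 nM and day 4 was larger in MV411 than in THP1 by 1.17 ± 0.24 (6.07% of genes differed).

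MEST fell with GSK032 at 10000 nM in THP1 and NOMO1, and its libraries with DAC lay above DMSO at that dose. In THP1 its libraries held 10.4 and 10.8 FPKM with GSK032 at 400 nM, 6.70 and 6.63 at 2000 nM, and 6.38 and 5.77 at 10000 nM, against 16.3 and 15.9 in DMSO. With DAC they held 10.3 and 8.74 FPKM at 400 nM, 18.0 and 16.1 at 2000 nM, and 24.8 and 23.4 at 10000 nM. At 400 nM both compounds gave MEST libraries under DMSO, with GSK032 minus DAC at 0.15 (95% interval −0.01 to 0.32). At 2000 nM the DAC libraries overlapped DMSO, and at 10000 nM both lay above it. The GSK032 changes of MEST were −0.58 ± 0.08 at 400 nM, −1.21 ± 0.08 at 2000 nM (adjusted p = 1.06e-12, 5.1% of genes called) and −1.34 ± 0.08 at 10000 nM (adjusted p = 7.16e-14, 7.69% of genes). The DAC changes were −0.73 ± 0.08 at 400 nM and 0.57 ± 0.08 at 10000 nM, neither called. After every THP1 library was rescaled to the same sum, which put the median gene at −0.34 with DAC, against −0.03 as deposited, the change at 400 nM was −1.07 and was called. At day 6 MEST had 9.87 and 9.67 FPKM with DAC in THP1, against 21.0 and 18.3 in DMSO, a change of −0.97 that was not called and that passed the size threshold after rescaling or without the second DMSO library (−1.07 in both).

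In NOMO1 MEST moved in opposite directions with the compounds at 2000 and 10000 nM. With GSK032 its libraries held 5.16 and 6.32 FPKM at 400 nM, 3.86 and 3.64 at 2000 nM, and 2.06 and 2.26 at 10000 nM, against 7.72 and 7.93 in DMSO. With DAC they held 5.27 and 5.46 FPKM at 80 nM, 7.23 and 8.25 at 400 nM, 20.0 and 18.3 at 2000 nM, and 20.3 and 20.1 at 10000 nM. The DAC libraries thus lay under DMSO at 80 nM and overlapped it at 400 nM. The GSK032 change at 2000 nM was not called as deposited. It was called with a pseudocount of 0.1 (−1.04) or without the first GSK032 library (−1.01). MEST fell by 1.65 with GSK032 at 10000 nM (SE 0.09, adjusted p = 1.19e-14) and rose by 1.24 ± 0.09 and 1.31 ± 0.09 with DAC at 2000 and 10000 nM (adjusted p = 2.61e-12 and 6.44e-13). GSK032 minus DAC for MEST was −2.21 ± 0.09 and −2.96 ± 0.09 at these doses in NOMO1, and −1.29 ± 0.08 and −1.90 ± 0.08 in THP1 (8.12% and 11.1% of genes). With GSK477 at 10000 nM MEST had 7.05 and 6.63 FPKM in NOMO1 and 14.2 and 14.9 FPKM in THP1, and neither was called over DMSO.

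Markers of other lineages moved in the DAC libraries of 10000 nM in both lines. In THP1 the 6 fibroblast markers summed to 31.2 to 37.0 FPKM with DAC and 1.73 to 2.39 with GSK032, against 0.577 to 1.58 in the 8 DMSO libraries, and the 5 epithelial markers to 43.7 to 50.2 with DAC and 4.11 to 5.10 with GSK032, against 1.63 to 2.74. COL1A2, EPCAM and KRT19 were under 1 FPKM in those DAC libraries. In NOMO1 the fibroblast markers summed to 53.9 to 56.0 FPKM with DAC and 7.53 to 7.77 with GSK032, against 2.57 to 9.83, and the epithelial markers to 215 to 230 with DAC and 75.8 to 90.0 with GSK032, against 26.5 to 40.8. COL3A1 and LUM were under 1 FPKM there with DAC. The 10 myeloid markers summed to 949 to 1108 FPKM with DAC and 1059 to 1169 with GSK032 in THP1, against 1003 to 1486, and to 2131 to 2315 with DAC and 5215 to 5457 with GSK032 in NOMO1, against 6062 to 8293. Their part in the changes of MEST was not tested.

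In MV411 MEST went the other way at day 6. With GSK032 at 400 nM it had 7.75 and 8.85 FPKM at day 1, 8.88 and 8.34 at day 2, 8.35 and 7.05 at day 4, and 9.50 and 8.83 at day 6, and with DAC 7.41 and 7.05 FPKM at day 6. DMSO held 6.39 and 7.94 FPKM at day 1, 6.32 and 7.36 at day 2, 5.42 and 4.57 at day 4, and 3.23 and 3.43 at day 6. The treated level was nearly level over the days while the DMSO libraries of day 6 lay under those of the earlier days. DMSO at day 6 minus day 1 was −0.99 ± 0.14 for MEST (adjusted p = 1.16e-05), just under the size threshold. The day 6 changes of MEST were 1.34 ± 0.14 with GSK032 and 1.01 ± 0.14 with DAC. The DAC call ended without the first DMSO or the first DAC library (0.98 in both cases), with a pseudocount of 1 (0.93) and after rescaling (0.85). MEST shares 4863 bases with MESTIT1 on the opposite strand, and whether strand was used in counting is not given in the sources used here.

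**Figure D4:**
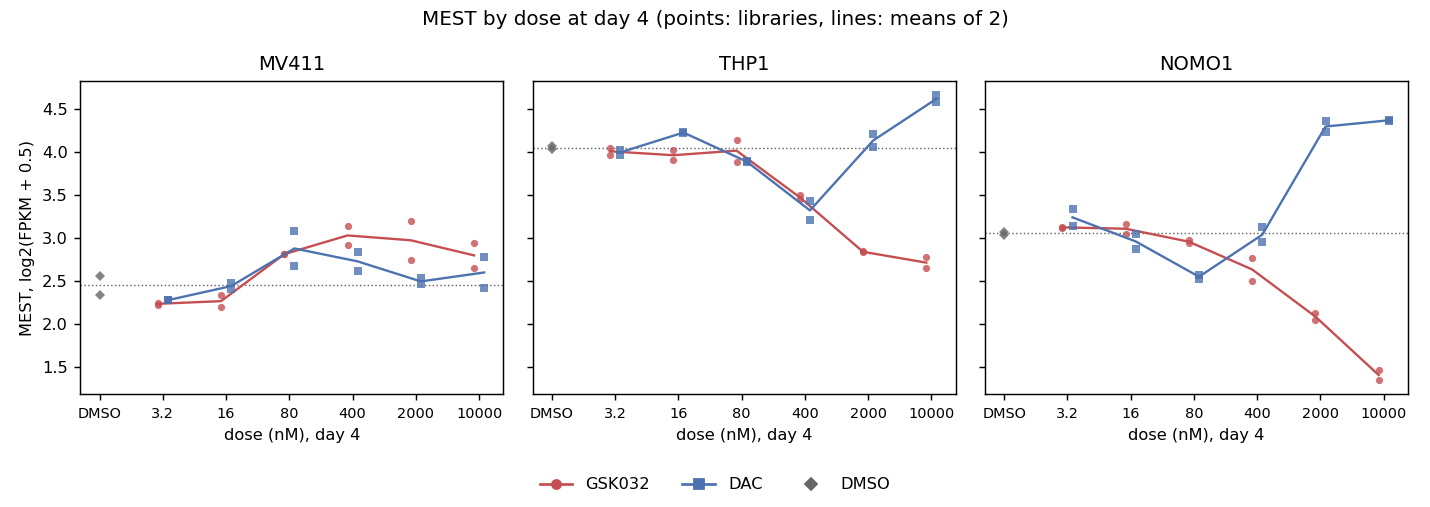
MEST by dose at day 4 in MV411, THP1 and NOMO1, as log2(FPKM + 0.5); points are single libraries, lines are means of 2, and the dotted line is DMSO. In THP1 and NOMO1 the GSK032 line drops and the DAC line climbs over the 2 highest doses; in MV411 no dose was called, with GSK032 at 8.35 and 7.05 FPKM at 400 nM, against 5.42 and 4.57 in DMSO.

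PLAGL1 was called higher in MV411 with GSK032 at 10000 nM and with DAC at day 6, and lower in THP1 with GSK032 at 10000 nM. No DAC dose of day 4 gave a call of PLAGL1 in MV411. In MV411 it had 8.37 and 9.13 FPKM with GSK032 at 400 nM and 11.1 and 10.9 at 10000 nM, against 4.50 and 5.92 in DMSO at day 4. The change at 10000 nM was 1.02 ± 0.13 (adjusted p = 8.40e-08), and it ended with a pseudocount of 1 (0.96) or without the first DMSO library (0.84). At day 6 PLAGL1 had 5.69 and 6.03 FPKM with GSK032 and 7.87 and 8.18 with DAC, against 3.04 and 2.48 in DMSO, and the DAC change of 1.39 ± 0.13 was called. The GSK032 change of that day was 0.97 ± 0.13, just under the size threshold, and was called with a pseudocount of 0.1 (1.06) or without the first DMSO (1.09) or the first GSK032 library (1.01). Over the 8 DMSO libraries of MV411, PLAGL1 ran from 2.48 to 5.92 FPKM. Both DMSO libraries of day 6 lay under the median of 3.50 FPKM and both of day 4 above it. The day 6 changes are thus against low controls, and the GSK032 libraries of that day stood near the highest DMSO library. In THP1 PLAGL1 had 10.1 and 8.83 FPKM with GSK032 at 10000 nM and 18.5 and 19.3 with DAC, against 19.8 and 22.2 in DMSO, and fell by 1.11 with GSK032 (SE 0.11, adjusted p = 8e-10). At 2000 nM its GSK032 change there was −0.83 ± 0.11, called after rescaling (−1.08). The effect at 400 nM and day 4 was higher in MV411 than in THP1 by 1.11 ± 0.18 with GSK032 and by 1.26 ± 0.18 with DAC.

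SNRPN and NAP1L5 gave 1 call over DMSO between them. SNRPN had 205 and 190 FPKM with GSK032 at 400 nM and day 6 in MV411, against 109 and 111 in DMSO, a change of 0.84 ± 0.16 that was not called. In NOMO1, where SNRPN is near 1 FPKM, DAC at day 6 gave 1.58 and 2.08 FPKM, against 0.357 and 0.826 in DMSO, a change of 1.12 ± 0.18 (adjusted p = 3.23e-06). That call ended with a pseudocount of 1 (0.84), and when the first DMSO library (0.81) or the second DAC library (0.97) was left out. With GSK032 at day 6 SNRPN had 1.36 and 1.78 FPKM in NOMO1, a change of 0.95 ± 0.18 that was not called, but was with a pseudocount of 0.1 (1.35), after rescaling (1.00), and without the first GSK032 library or without the second DMSO library, which gave 1.27. No SNRPN level of NOMO1 exceeded 2.08 FPKM, under every level of MV411 and THP1. SNRPN overlaps SNURF over 22865 bases and AC124312.1 over 23690 bases on the same strand, so its level is uncertain between them. NAP1L5 was not called over DMSO in any line as reported here, and with a pseudocount of 0.1 its DAC change at day 6 in NOMO1 was called (1.01). Its NOMO1 libraries at day 6 held 0.282 and 0.325 FPKM with GSK032, against 1.38 and 1.17 FPKM with DAC (−1.14 ± 0.13, 17.6% of genes called). These DAC libraries were the only ones of NOMO1 at 1 FPKM or more, so the filter chose NAP1L5 on this difference, which is a description.

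No member was called at day 1, at 3.2 or 16 nM, or with GSK477. At day 1, limma called 0 of 36 member tests over both compounds and all lines, and 0 had an unadjusted p under 0.05, where 0.2% of gene tests were called. At 3.2 and 16 nM it called 0 of 72, with 5 under an unadjusted p of 0.05, where 0.173% of gene tests were called. For GSK477 at days 2 and 4 it called 0 of 36, with 3 under that p, where 0.143% of gene tests were called. For GSK862 it called 1 of 36, the PEG3 change given above, where 1.93% of gene tests were called. GSK862 was less quiet than GSK477 by p alone, with 15 of its member tests under an unadjusted p of 0.05 and 11 under an adjusted p of 0.05. DMSO at day 6 over day 1 gave 0 calls in 18 member tests and 3 tests under an unadjusted p of 0.05, where 1.06% of gene tests were called.

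Other imprinted genes outside chromosome 11 were read from a list of 51, and the filter left 28 for MV411, 25 for THP1 and 29 for NOMO1. At 400 nM and day 4, GSK032 had 2 called higher and 1 lower in MV411, 2 higher in THP1 and 2 higher in NOMO1. Either way, 9.31%, 2.27% and 2.93% of all tested genes were called in these lines. DAC had 2, 2 and 9 called higher, and none lower in any of these lines, where 10.2%, 8.16% and 19.1% of genes were called. The median change of the list was 0.40 with DAC in NOMO1, against 0 over all genes. In NOMO1 DAC raised TFPI2, an inhibitor of serine proteases from the PEG10 region, to 32.1 and 57.9 FPKM, against 0.122 and 0.127 in DMSO (6.13 ± 0.31), and MEG8, a noncoding RNA of the MEG3 cluster, to 4.64 and 3.52 FPKM, against 0.0292 and 0.132 (2.97 ± 0.20). RHOBTB3, at 23.1 and 25.0 against 2.52 and 2.76 FPKM, and MKRN3, from the SNRPN region, at 3.19 and 3.19 against 0.597 and 0.511 FPKM, also rose. With GSK032 the NOMO1 calls were TFPI2, at 1.197 and 1.44 FPKM (1.54 ± 0.31), and MKRN3, at 2.37 and 2.32 FPKM (1.43 ± 0.22), against the same DMSO libraries. In MV411 SNHG14, the host transcript that follows SNRPN, rose by 1.03 ± 0.09 with GSK032, to 106 and 108 FPKM, against 50.6 and 54.1, and ZNF264, near PEG3, rose by 1.21 ± 0.11. TP73, a relative of p53, was the 1 called lower there, at 0.365 and 0.545 FPKM with GSK032, against 1.41 and 1.89, and with DAC ZNF264 and DLX5, a homeobox factor, were called higher. In THP1 FAM50B and DIRAS3 rose with both compounds, and DIRAS3, a small GTPase, held 1.00 and 1.07 FPKM with GSK032 and 1.13 and 1.14 FPKM with DAC and is listed at 0 in both DMSO libraries. FAM50B and DIRAS3 in THP1, TFPI2 and MEG8 in NOMO1 and DLX5 in MV411 were near 0 in DMSO of day 4. At that level a gene can be called higher but not lower, so the direction of these calls is not a result.

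Of 24 regulators of imprints, the filter left 18 for MV411, 17 for THP1 and 20 for NOMO1. At 400 nM and day 4, GSK032 had 1, 0 and 1 called in these lines and DAC 2, 0 and 1, beside the shares of all genes just given. DNMT3L, the partner of the germline methyltransferases, rose in MV411 with GSK032 to 1.06 and 1.14 FPKM, against 0.00981 and 0 in DMSO, and in NOMO1 to 1.05 and 1.60 FPKM, against 0.267 and 0.285. UHRF1, which guides DNMT1 to replicated DNA, fell by 1.51 with DAC in MV411 (SE 0.14), at 54.2 and 46.0 FPKM, against 148 and 137 in DMSO. NLRP2, a maternal-effect gene, rose with DAC in NOMO1 to 3.61 and 4.46 FPKM, against 0.451 and 0.548 in DMSO. DNMT3L also rose with DAC in MV411, to 0.792 and 0.512 FPKM. From its DMSO level in MV411 it could be called higher but not lower.

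The genes whose levels ran most like those of a member were taken by Pearson's r over the 26 group means of a line, which share their controls and doses. MEG3 in NOMO1 was closest to SSX1 (r = 0.992), and its neighbour MEG8 was among its 3 closest genes (r = 0.987). DLK1 in NOMO1 was closest to KRT4, SP6 and AKAP5, each at 0.991. PEG3 in MV411 was closest to RBMY2FP at 0.965 and L3MBTL1 in MV411 to MTMR3 at 0.986. PLAGL1 was closest to ZNF493 in MV411 (r = 0.968) and to DCAF16 in THP1 (r = 0.939), and SNRPN in NOMO1 to TESC (r = 0.828). MEST was closest to ALDH7A1 in THP1 (r = 0.957), to TMEM14C in NOMO1 (r = 0.950) and to MRFAP1L1 in MV411 (r = 0.915), a different gene in each line.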

How the data were processed

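RNA of 156 libraries was sequenced from 3 cell lines. Values are FPKM, deposited by the authors as 1 table per line; Salmon 0.12.0, DESeq2 and the build hg38 are named in the submitters' processing notes, and the annotation and use of strand are not given in the sources used here. Ensembl identifiers were matched to GENCODE 29 names (56511 of 59939). Genes with at least 1 FPKM in 2 libraries of a line were fitted on log2(FPKM + 0.5) with limma 3.58.1 (R 4.3.3) by group means over all 52 libraries of the line, with a variance trend and Benjamini-Hochberg adjustment over all tested genes (22007 in MV411, 23226 in THP1, 20763 in NOMO1). Differences between lines came from 1 fit over 156 libraries and 26674 genes. Calls need an adjusted p under 0.05 and a log2 change of at least 1. The fit was tested on simulated data. Fragment scale per library was estimated from low FPKM of genes with 1 transcript. Of the low values of a library, 57.8% to 79.1% lay within 0.15 of a whole fragment, against 30% for values spread evenly. The scale was chosen to make this share largest, so 30% is not its chance level. No count test was run.

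The members, gene lists and tests were chosen with earlier results of these data known. All members are described. Of the other lists, genes called at 400 nM and day 4 are named, at most 4 per line and compound, and likeness is given for members called over DMSO, with 3 genes for DLK1, 2 of the 3 closest for MEG3 and 1 for the others. Some items are not reported here. ANO1, on chromosome 11, was left out, and HYMAI was not matched. Alternatives were pseudocounts of 0.1 and 1, no filter on low values, rescaling to equal sums, a replicate block, no variance trend, and leaving out single libraries.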

Additional observations from a re-analysis of the deposited data

Results flagged for a closer look

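The effect of 400 nM at day 4 was compared between lines in 1 limma fit over 156 libraries, with adjustment over 26674 genes, and 11 differences of members passed an adjusted p of 0.05 and a size of 1 on the log2 scale. The effect of DAC on MEG3 differed by −4.14 between MV411 and NOMO1 (11.2% of genes differed) and by 4.16 between NOMO1 and THP1 (9.89% of genes). For DLK1 the same differences were −2.93 and 2.92. Both genes were near 0 in DMSO of every line and entered that fit only through treated NOMO1 libraries, which largely fixes these differences.

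The effect of GSK032 on PEG3 was larger in MV411 than in THP1 by 1.75 (4.45% of genes) and than in NOMO1 by 1.804 (6.43% of genes). PEG3 had at most 0.1203 FPKM in any THP1 library and 0.02398 in any NOMO1 library. It passed the filter through MV411 libraries alone, so these differences restate its change in MV411. PLAGL1 differed between MV411 and THP1 by 1.11 with GSK032 and by 1.26 with DAC (6.07% of genes). MEST differed between the same lines by 1.155 with GSK032 and by 1.00 with DAC, and L3MBTL1 by 1.17 with DAC.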

How the results depend on the processing

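The number of members called over DMSO at 400 nM and day 4 was the same under the alternatives run, except with DAC in THP1, where rescaling to equal sums gave 1 (MEST, −1.07), against 0. No member change reversed. A pseudocount of 1 ended the calls of SNRPN with DAC at day 6 (0.84), of DLK1 with DAC at 80 nM (0.84) and, for GSK032 minus DAC in NOMO1, of DLK1 at 80 nM (−0.92), MEG3 at day 2 (−0.94) and MEST at day 6 (−0.96). NAP1L5 with GSK032 minus DAC at day 6 in NOMO1 also lost its call (−0.80). A pseudocount of 0.1 added 15 member calls and rescaling 9. In NOMO1 the pseudocount added DLK1 with DAC at day 2 (2.13) and, for GSK032 minus DAC, NAP1L5 at 400 nM and day 4, SNRPN (1.25) and PLAGL1 (−1.02) at 10000 nM. In MV411 rescaling added SNRPN (1.50), NAP1L5 (1.31), L3MBTL1 (1.27) and PLAGL1 (1.03) for GSK032 minus DAC at 10000 nM. Leaving out a library added 18 member calls and ended 7. At 400 nM and day 4 rescaling put the median gene of MV411 at 0.25 with GSK032, against 0, where 2257 genes were then called higher and 257 lower, against 1442 and 607, and that of THP1 at −0.34 with DAC, against −0.03, where 1013 were called higher and 1549 lower, against 1446 and 449. GSK032 called 890 genes in THP1 with a pseudocount of 0.1 and 342 with 1, against 528, and 1007 in NOMO1 with 0.1, against 608. The causes were not tested. With a replicate block, 2 members were called with GSK032 at 400 nM and day 4 in MV411, and the block changed no call among the 546 member changes it could give. It left out 4 unnumbered MV411 libraries, those of day 4 with GSK477 or GSK862, so the PEG3 call with GSK862 has no value under the block. Same-numbered libraries deviated together with r over 0.1 in 101 of 276 pairs of groups in MV411. The count was 93 of 325 in THP1 and 112 of 325 in NOMO1. The median r was 0.0802 in MV411, 0.081 in THP1 and 0.0881 in NOMO1. These values do not settle whether the replicate numbers pair the libraries. Leaving out libraries of day 1, of 3.2 and 16 nM, of GSK477 and of GSK862 at day 2 was not run. With 2 libraries a group, and no fragment counts, members under 1 FPKM are measured least well.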
